A study of Mus musculus with 2 samples.

Results

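The genes described here are 46 genes of the mitotic machinery, from the kinase that drives cells into mitosis to the proteins that part the daughter cells. They were chosen by their roles (cyclins and kinases of mitotic entry, checkpoint, kinetochore, chromosomal passenger, spindle motor, condensin and cytokinesis genes). Earlier results of these data were known when they were chosen. All 46 had a tag in both libraries, out of 14450 mouse genes with a tag in either library. The 2 libraries came from GC-1spg, a line of type B spermatogonia of a 10-day-old mouse transformed with pSV3-neo, and from GC-2spd (ts), a spermatocyte line of a 6-week-old mouse transformed with SV40 large T antigen. Both were grown in DMEM with 10% fetal bovine serum and the labels name no treatment. The labels place GC-1spg between type B spermatogonia and primary spermatocytes, and GC-2spd (ts) at a premeiotic stage. Each line is 1 immortalized culture with 1 library, so no difference has a replicate check, and the cell line, its culture and its library cannot be told apart. The tests compare the reads of those libraries.

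In mitosis, Cdk1 bound to a cyclin starts chromosome condensation and spindle assembly. Kinetochores, the protein plates on the centromeres, catch spindle microtubules, and the spindle checkpoint holds back the anaphase-promoting complex until every chromosome is attached. That complex then marks cyclin B and securin for destruction, which frees separase to cut cohesin, and the central spindle sets the site where the cell is cut. Most of these genes are transcribed late in the cell cycle, so that in bulk RNA their level rises with the share of dividing cells, and the share of cells and the RNA per cell cannot be told apart. Spermatogonia divide by mitosis, while spermatocytes go through meiosis with much of the same machinery.

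Digital gene expression (DGE) profiling counts 1 short tag for each polyadenylated transcript copy, beginning at a CATG site that *Nla*III cuts, usually the one nearest the 3′ end. A tag holds CATG and 17 more bases. A gene's level is given in TPM, the gene's tags scaled to 1000000 clean tags of the library, over unambiguous sense tags, which are those whose best match lies in 1 gene. The clean tags numbered 5072149 in GC-1spg against 4726808 in GC-2spd (ts), and 1 copy was worth 0.197 and 0.212 TPM. Intervals in brackets are exact 95% intervals of the log2 ratio of GC-2spd (ts) over GC-1spg and cover counting error only. A gene was called higher or lower in GC-2spd (ts) when the Audic-Claverie test gave a false discovery rate (FDR) of at most 0.001 over all 14450 genes and the log2 ratio was at least 1 in size. Among markers, 0 of 5 general germ cell genes had a tag, 1 of 8 spermatogonial genes did (*Uchl1*, 329 and 66 tags) and 1 of 8 spermatocyte genes did (*Spo11*, 2 and 0 tags). Of 8 fibroblast genes, 6 had tags, with 11915 tags in all in GC-1spg against 3612, and they went both ways (*Col1a1* 10465 and 2425, *Col1a2* 605 and 907, *Pdgfrb* 0 and 84). Of 6 Sertoli cell genes, 4 had tags, 683 and 184 in all, likewise in both directions (*Wt1* 620 and 0, *Gata4* 29 and 138). All 4 peritubular myoid genes had tags, 66 and 576 in all (*Acta2*, 50 and 555). Tags were found for 2 of 5 Leydig cell genes (4 and 5 in all) and 0 of 3 leukocyte genes. Their part in the values below was not tested.

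The tags below carry the results that follow. The first lines hold the most abundant unambiguous tag of the called members with the largest log2 ratios (*Cenpf*, *Mki67*, *Smc4* and *Cenpe*, higher, and *Pttg1* and *Spc25*, lower) and of *Cdk1*, the member with the most tags. Capitals mark the *Nla*III site, and positions are on GRCm38.
Cenpf, chr1:189642049-189642069, minus strand, 3′ UTR in exon 18 of 18, 57 and 173 copies: CATGtttactgtcactgtttt
Mki67, chr7:135689867-135689887, minus strand, 3′ UTR in exon 14 of 14, 256 and 756 copies: CATGaggaagatcaccaggga
Smc4, chr3:69034058-69034078, plus strand, coding sequence in exon 23 of 24, 182 and 601 copies: CATGgatgagattgatgcagc
Cenpe, chr3:135270874-135270894, plus strand, coding sequence in exon 45 of 46, 48 and 110 copies: CATGgttttttgataaccggt
Pttg1, chr11:43420400-43421118, minus strand, across the junction of exons 4 and 5 of 5, 3′ UTR of that transcript, 475 and 115 copies: CATGggaatctgatccgctgt
Spc25, chr2:69194011-69194031, minus strand, 3′ UTR in exon 7 of 7, 171 and 77 copies: CATGttgtaaaatcctactgt
Cdk1, chr10:69338333-69338353, minus strand, 3′ UTR in exon 9 of 9, 2845 and 3362 copies: CATGtaaatattattccatat
In each line the first copy number is that of GC-1spg. Over the 46 members, the most abundant tag lay at the first CATG from the 3′ end of a transcript in 37, in a 3′ UTR in 30 and in coding sequence in 14.

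Most of the mitotic genes had more tags in GC-2spd (ts). The log2 ratio was above 0 in 35 of 46 members, against 55.7% of all genes, and its interval lay wholly above 0 in 27 members and wholly below 0 in 7, against 30.2% and 20.9% of all genes. Of the members, 12 were called higher (26.1% of them, where 11.7% of all genes were) and 3 were called lower (where 7.84% of all genes were). The median log2 ratio was 0.57, beside 0.13 over all genes. With TMM scaling, which moved the median of all genes to −0.04, 11 members were called higher and 3 lower, where 8.94% and 9.99% of all genes were. These calls allow for counting error alone: with edgeR's exact test and an assumed biological coefficient of variation of 0.2, 1 member stayed called higher (*Mki67*) and 1 lower (*Pttg1*), and with 0.4 none did. Of all genes, 3.54% were called higher and 3.38% lower at 0.2, and 0.747% and 0.941% at 0.4. At these settings the members were thus not called more often than all genes. Since called genes need tags, the 37 members with at least 100 tags over both libraries were set beside the 7100 genes with as many. There 11 members were called higher and 2 lower, against 16.5% and 8.77% of those genes, and the medians were 0.56 and 0.20. Summed over the members, 17384 tags in GC-1spg (3427 TPM) stood against 20912 in GC-2spd (ts) (4424 TPM), at a log2 ratio of 0.37 (0.34 to 0.40).

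The spread between members was wide, from a log2 ratio of −2.60 for *Ncapg* to 1.80 for *Cenpf*. The most abundant members, *Cdk1*, *Birc5*, *Ccnb1* and *Ube2c*, were not called, and of the 12 called higher only *Ect2*, *Mki67* and *Smc4* had more than 100 TPM in GC-2spd (ts).

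**Figure D1:**
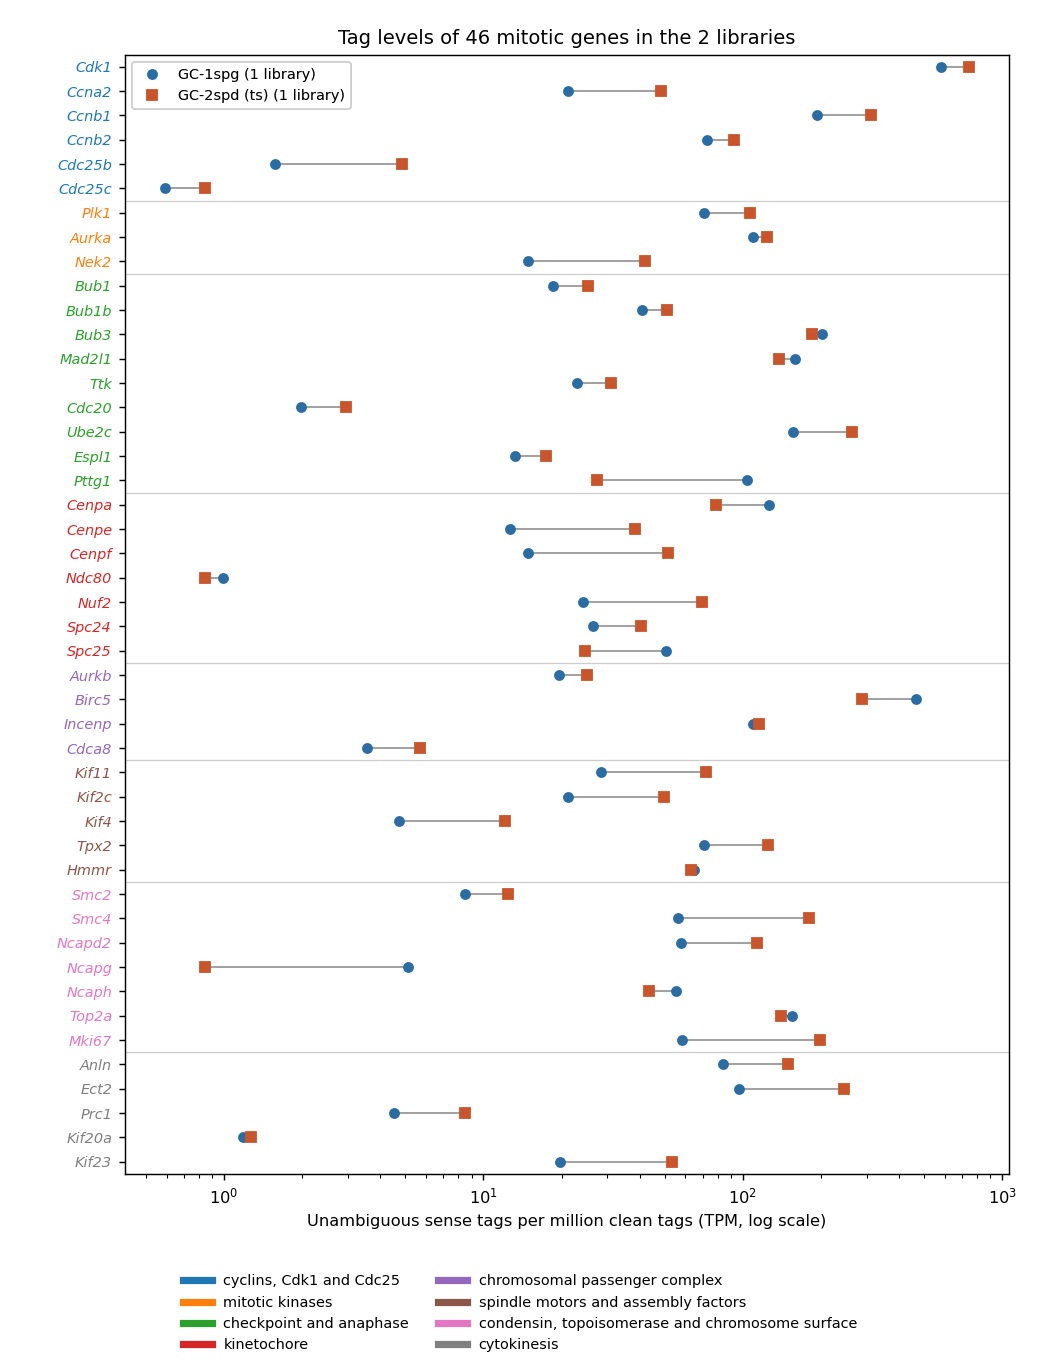
Level of each of the 46 mitotic genes in TPM (log axis), with 1 point for the GC-1spg library and 1 for the GC-2spd (ts) library, in role groups. The levels run from 0.591 TPM for *Cdc25c* in GC-1spg to 742 TPM for *Cdk1* in GC-2spd (ts), and *Pttg1* and *Ncapg* are the widest pairs with GC-2spd (ts) on the left.

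**Figure D2:**
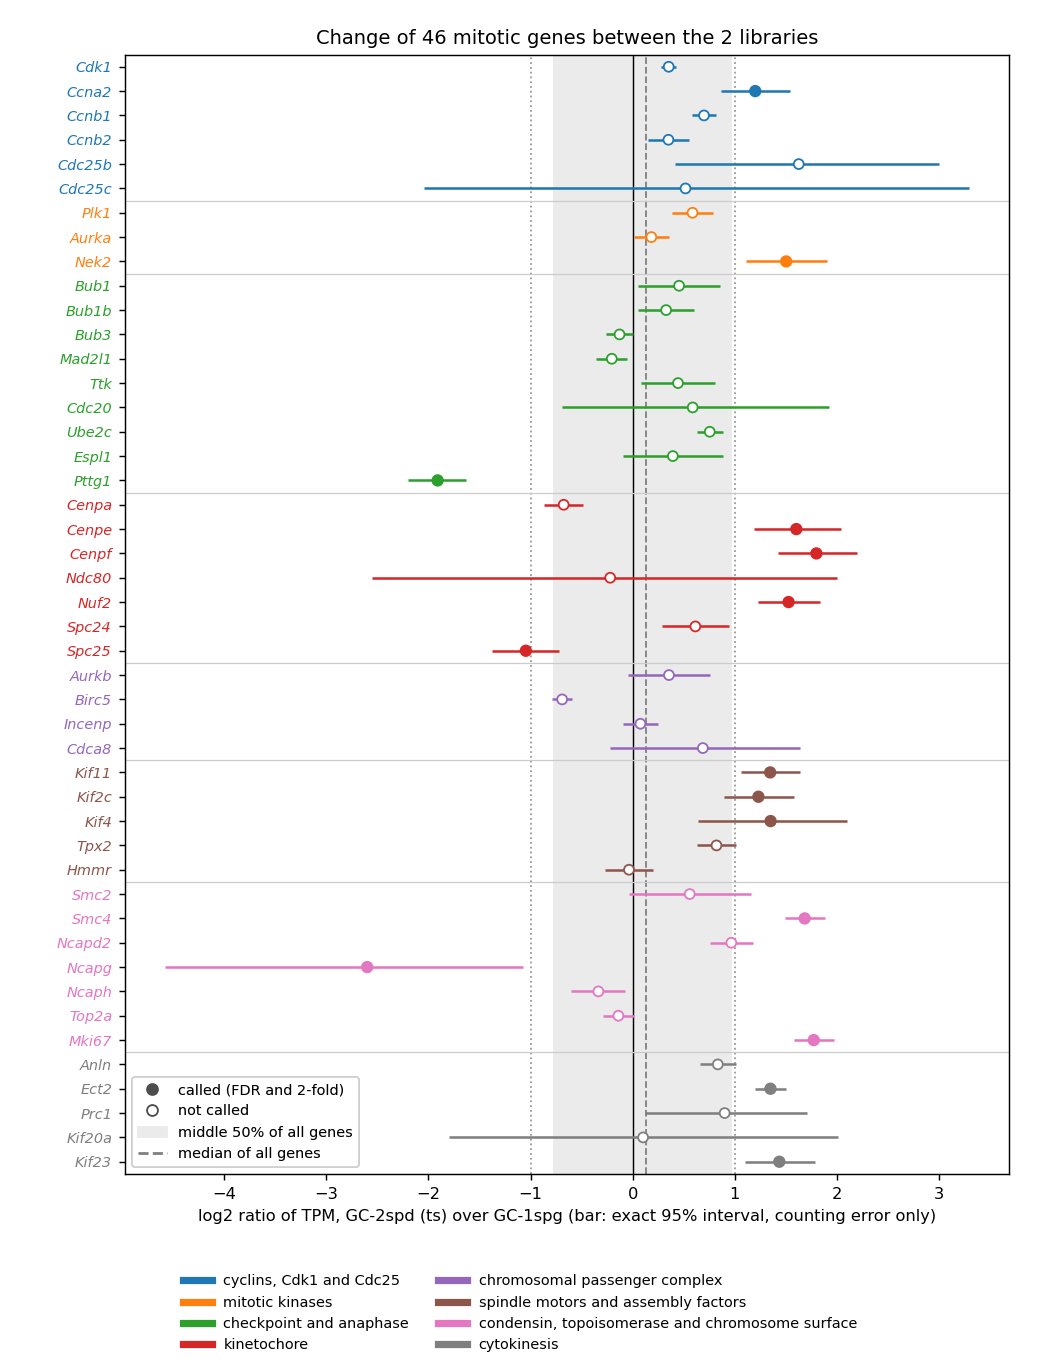
log2 ratio of TPM, GC-2spd (ts) over GC-1spg, for the same genes, with exact 95% intervals as bars, filled points for called genes, dotted lines at the 2-fold limits, and the median and middle 50% of all 14450 genes as a dashed line and a band. 35 of 46 points lie to the right of 0, and *Pttg1*, *Spc25* and *Ncapg* are the filled points to the left.

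Of the genes of mitotic entry, all 6 had log2 ratios above 0 and 1 was called higher. Of all genes, 55.7% had log2 ratios above 0 and 11.7% were called higher. *Cdk1*, the kinase itself, had 2948 tags (581 TPM) in GC-1spg against 3508 (742 TPM) in GC-2spd (ts), at a log2 ratio of 0.35 (0.28 to 0.42). *Ccnb1*, its main mitotic cyclin, had 979 tags (193 TPM) and 1480 (313 TPM), at a log2 ratio of 0.70 (0.58 to 0.82). Both intervals exclude 0 as well as a 2-fold change. *Ccnb2*, the other B-type cyclin, had 368 and 437 tags (log2 ratio 0.35, 0.15 to 0.55). *Ccna2*, the cyclin of S phase and early mitosis, was called higher, with 107 tags (21.1 TPM) against 229 (48.4 TPM) and a log2 ratio of 1.20 (0.86 to 1.54). This call rested on a small part of the gene's tags, as described further on. The phosphatases that activate Cdk1 had few unambiguous tags. *Cdc25b* had 8 and 23 and *Cdc25c* 3 and 4, which leaves log2 ratios of 1.63 (0.41 to 3.0) and 0.52 (−2.05 to 3.29), neither called. A further 152 and 249 tags of *Cdc25c* are shared with another gene, as described further on.

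Among the mitotic kinases *Nek2*, which acts in centrosome separation, was called higher. It had 75 tags (14.8 TPM) in GC-1spg against 198 (41.9 TPM) in GC-2spd (ts), at a log2 ratio of 1.50 (1.11 to 1.91). *Plk1*, the polo-like kinase, had 359 and 502 tags (log2 ratio 0.59, 0.39 to 0.78). *Aurka*, the kinase of centrosomes and spindle poles, had 555 and 587 tags (log2 ratio 0.18, 0.01 to 0.35). The interval of *Nek2* lies above those of the other two kinases.

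The checkpoint and anaphase genes held 1 call, in the opposite direction, and it rested on more tags than the other lower calls. *Pttg1*, which encodes securin, the inhibitor of separase, was lower in GC-2spd (ts), with 524 tags (103 TPM) in GC-1spg against 130 (27.5 TPM) in GC-2spd (ts), at a log2 ratio of −1.91 (−2.20 to −1.63). *Espl1*, which encodes separase, had 67 and 82 tags (log2 ratio 0.39, −0.09 to 0.88). Both *Pttg1* tags with at least 50 copies moved alike: the junction tag printed above had 475 and 115 copies, and a tag in the last exon of another transcript had 37 and 13. *Ube2c*, the ubiquitin-conjugating enzyme of the anaphase-promoting complex, had 794 and 1248 tags (log2 ratio 0.75, 0.62 to 0.88). The checkpoint kinases *Bub1* (94 and 120 tags) and *Ttk* (116 and 147) and the checkpoint protein *Bub1b* (207 and 242) had log2 ratios of 0.45, 0.44 and 0.33. *Mad2l1*, the inhibitor of Cdc20, had 805 and 651 tags, and *Bub3*, which docks the checkpoint proteins on the kinetochore, 1023 and 872, with log2 ratios of −0.20 and −0.13. *Cdc20*, the activator of the anaphase-promoting complex, had only 10 and 14 unambiguous tags. So 1 of these 9 genes was called lower and none higher, where 7.84% and 11.7% of all genes were. The summed tags of the group, 3640 and 3506, had a log2 ratio of 0.05 (−0.02 to 0.11).

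The kinetochore genes split. *Cenpf*, a large protein of the outer kinetochore, had 75 tags (14.8 TPM) in GC-1spg against 243 (51.4 TPM) in GC-2spd (ts), at a log2 ratio of 1.80 (1.42 to 2.19). *Cenpe*, the kinetochore motor, had 64 tags (12.6 TPM) and 181 (38.3 TPM), at a log2 ratio of 1.60 (1.18 to 2.04). Both were called higher. In contrast *Cenpa*, the histone H3 variant that marks the centromere, had 641 tags (126 TPM) and 374 (79.1 TPM), at a log2 ratio of −0.68 (−0.86 to −0.49), below 0 but short of 2-fold. The most abundant tag of *Cenpf* lay at the 9th CATG from the 3′ end and the second tag at the 8th. The tag of its CATG nearest the end is shared with many genes. With only the CATG nearest the 3′ end counted, the call of *Cenpf* was lost.

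The Ndc80 complex, which binds microtubules, has 4 subunits that work as 1 rod, and their tags did not move together. *Nuf2* was called higher, with 123 tags (24.3 TPM) and 330 (69.8 TPM) and a log2 ratio of 1.53 (1.22 to 1.84). *Spc25* was called lower, with 257 tags (50.7 TPM) and 116 (24.5 TPM) and a log2 ratio of −1.05 (−1.37 to −0.72). Of these, 57 and 26 were copies of a tag that ends in a run of A and matches *Spc25* only with 1 mismatch. The call of *Spc25* held with exact matches only and was lost when shared tags were counted for every gene. *Spc24*, the direct partner of Spc25, had 134 and 191 tags (log2 ratio 0.61, 0.29 to 0.94). In GC-1spg *Spc25* was the highest of these subunits in TPM, and in GC-2spd (ts) *Nuf2* was. *Ndc80* itself had 5 and 4 unambiguous tags, and a further tag that it shares with a pseudogene is described further on.

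Of the chromosomal passenger complex, which corrects faulty attachments and directs cytokinesis, no member was called on its unambiguous tags. *Birc5*, which encodes survivin, was the second most abundant of the 46 genes in GC-1spg, with 2357 tags (465 TPM) against 1361 (288 TPM) in GC-2spd (ts) and a log2 ratio of −0.69 (−0.79 to −0.59). It alone held most of the group's tags, and the group's sum had a log2 ratio of −0.46 (−0.54 to −0.38), while the median of the 4 genes was 0.22. The scaffold *Incenp* had 557 and 547 tags (log2 ratio 0.08, −0.10 to 0.25). The kinase *Aurkb* had 99 and 118 tags and *Cdca8*, which encodes borealin, 18 and 27. Most tags of *Aurkb* and *Cdca8* lay outside this count, as described further on. With them *Cdca8* was called higher and *Aurkb* had a log2 ratio of −0.13.

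Of the spindle motors and assembly factors, 3 of 5 were called higher and none lower, where 11.7% and 7.84% of all genes were. *Kif11*, the motor that pushes the spindle poles apart, had 144 tags (28.4 TPM) and 341 (72.1 TPM), at a log2 ratio of 1.35 (1.06 to 1.64). *Kif2c*, a microtubule depolymerase at the centromere, had 107 tags (21.1 TPM) and 234 (49.5 TPM), at a log2 ratio of 1.23 (0.89 to 1.57). *Kif4*, a chromosome-bound motor, had 24 tags and 57, a log2 ratio of 1.35 (0.64 to 2.10), and its call was lost when the libraries were scaled by TMM. *Tpx2*, the activator of Aurora A on microtubules, had 358 and 589 tags (log2 ratio 0.82, 0.63 to 1.01). *Hmmr*, a spindle protein that also binds hyaluronan, had 329 and 299 tags (log2 ratio −0.04, −0.27 to 0.19).

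The 5 condensin I subunits, which compact mitotic chromosomes, also moved unequally. *Smc4* was called higher, with 285 tags (56.2 TPM) and 853 (180 TPM) and a log2 ratio of 1.68 (1.49 to 1.88). Its partner *Smc2* had 43 and 59 tags (log2 ratio 0.56, −0.03 to 1.16). Of the other subunits, *Ncapd2* had 294 and 535 tags (0.97, 0.76 to 1.18), *Ncaph* 279 and 206 (−0.34, −0.60 to −0.07) and *Ncapg* 26 and 4 (−2.60, −4.58 to −1.07), of which *Ncapg* was called lower on few tags. *Mki67*, the proliferation marker that coats mitotic chromosomes, was called higher, with 295 tags (58.2 TPM) and 939 (199 TPM) and a log2 ratio of 1.77 (1.58 to 1.97). *Top2a*, the topoisomerase that untangles sister chromatids and is likewise used as a proliferation marker, had 784 tags (155 TPM) and 663 (140 TPM), at a log2 ratio of −0.14 (−0.29 to 0.01). The interval of *Top2a* includes 0 and lies below that of *Mki67*. The sites of *Top2a* went both ways. Its most abundant tag had 373 and 290 copies (−0.26, −0.49 to −0.04) and the next 192 and 141 (−0.34, −0.67 to −0.02). A tag of a noncoding transcript had 54 and 14 (−1.85, −2.81 to −0.98). By contrast a tag in exon 1 had 31 and 39 (0.43, −0.28 to 1.16), and a tag across the junction of exons 32 and 33 had 17 and 47 (1.57, 0.74 to 2.46).

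All 5 cytokinesis genes had log2 ratios above 0, where 55.7% of all genes did. Their summed tags gave the largest log2 ratio of the role groups, 1.16 (1.05 to 1.26), from 1044 tags to 2167. *Ect2*, the exchange factor that activates RhoA at the cell equator, was called higher, with 491 tags (96.8 TPM) and 1165 (246 TPM) and a log2 ratio of 1.35 (1.19 to 1.50). *Kif23*, a motor of the central spindle, was called higher as well, with 100 tags (19.7 TPM) and 252 (53.3 TPM) and a log2 ratio of 1.44 (1.10 to 1.78). *Anln*, the anillin scaffold of the contractile ring, had 424 and 704 tags (log2 ratio 0.83, 0.66 to 1.01). *Prc1*, which bundles the central spindle, and the motor *Kif20a* had few unambiguous tags (23 and 40, and 6 and 6).

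For several of the 46 genes most of the tags, or a large part of them, lay outside the unambiguous count. Either another gene in sense, a gene on the other strand or a pseudogene has the same tag, or the last CATG is so close to the transcript's end that the tag runs into the poly(A) tail, which the reference transcripts lack. The lines below give the most abundant tag that such a gene shares with 1 other gene, then the tags that run into the tail, again with the copies in GC-1spg first. The tags of *Kif20a* and *Cdc25c* are not shown. The one of *Cdc25c*, with 152 and 249 copies, also lies in sense in *Zim3* and was given to neither gene.
Cdc20, shared with the pseudogene Gm7856, chr4:118433486-118433506, minus strand, coding sequence in exon 9 of 10, 259 and 242 copies: CATGgccaaggtggctgagct
Kif11, shared with Gm15697, chr19:37420271-37420291, plus strand, coding sequence in exon 22 of 22, 129 and 247 copies: CATGgaaaagacaaagaaaac
Ndc80, shared with Gm5357, chr17:71496283-71496303, minus strand, coding sequence in exon 17 of 17, 0 and 147 copies: CATGtctgaagatctcctgga
Ncapg, shared with the antisense strand of Lcorl, chr5:45700074-45700094, plus strand, 3′ UTR in exon 21 of 21, 173 and 140 copies: CATGacttcagactccttatt
Prc1, shared with the antisense strand of Rccd1, chr7:80316027-80316047, plus strand, 3′ UTR in exon 14 of 14, 714 and 977 copies: CATGgagtcagcaactttgca
Ccna2, 19 bases in the transcript and the rest in the tail, 1452 and 2495 copies: CATGcaaattaaccctttaaa
Cdca8, 14 bases in the transcript, 168 and 361 copies: CATGgttttaagtcaaaaaaa
Aurkb, 12 bases in the transcript, 563 and 440 copies: CATGtttttgaaaaaaaaaaa
When the tags were given to the sense gene that is not a pseudogene, and the transcripts were extended by a poly(A) tail (a setting added once the values were known), the tag number of 9 members grew at least 1.5 times. Whether a shared tag came from the member or from the other gene was not tested.

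These tags changed which genes were called. *Ccna2* went from 107 and 229 tags to 1830 and 3108, which made it the most abundant member after *Cdk1* in GC-2spd (ts), and its log2 ratio became 0.87 (0.78 to 0.95), below the 2-fold limit. *Kif20a*, whose main tag is shared with the antisense strand of *Cdc23*, went from 6 and 6 tags to 637 and 1253, with log2 ratio 1.08 (0.94 to 1.22), and was called higher. *Cdca8* went to 193 and 405 tags (log2 ratio 1.17, 0.92 to 1.43), and was called higher. *Ncapg* went to 213 and 150 tags (log2 ratio −0.40, −0.72 to −0.10), and its lower call was lost. *Prc1* went to 752 and 1035 tags (0.56, 0.43 to 0.70), *Cdc20* to 273 and 264 (0.05, −0.20 to 0.30) and *Aurkb* to 668 and 567 (−0.13, −0.30 to 0.03), none of them called. The tail tag of *Aurkb* ends in a run of A, as do tail tags that match many genes. The one of *Cenpa*, in 930 genes, had 8399 and 2198 copies, and the one of *Smc2*, in 49 genes, 1731 and 500. The tail tag of *Cdca8* also ends in A but had more copies in GC-2spd (ts). Whether the run of A bears on the *Aurkb* count was not tested. *Kif11* stayed called higher, with 273 and 595 tags (1.23, 1.02 to 1.44).

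*Ndc80* showed the largest shift. Its tag in coding sequence had 147 copies in GC-2spd (ts) and none in GC-1spg, and with it the counts were 8 and 151, a log2 ratio of 4.34 (3.32 to 5.58). The same 21 bases occur in *Gm5357*, so the files do not tell which gene the copies came from. Under this counting 14 members were called higher and 2 lower, where 11.5% and 7.74% of all genes were, and the summed members gave a log2 ratio of 0.45.

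**Figure D3:**
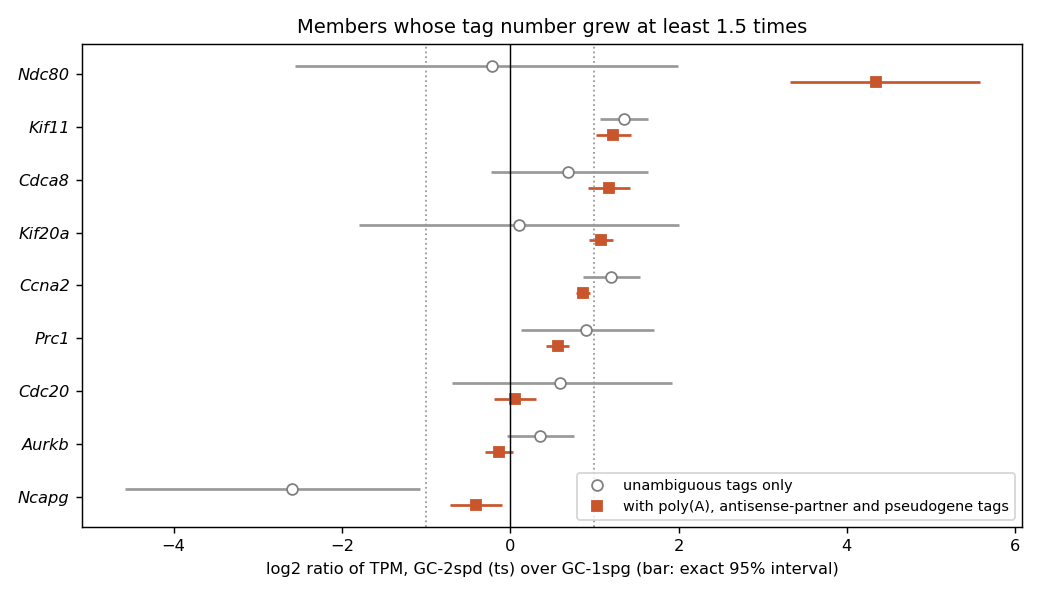
log2 ratio of TPM, GC-2spd (ts) over GC-1spg, with exact 95% intervals, for the 9 members whose tags grew at least 1.5 times, from unambiguous tags only (open circles) and with the tags of the poly(A) tail, the antisense partner and the pseudogene added (squares). The intervals narrow for every gene, *Kif20a* and *Cdca8* move past the dotted 2-fold line, *Ccna2* and *Ncapg* move back inside the 2-fold lines, and *Ndc80* lies far to the right.

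Some further tags of these genes match many genes and were given to none. The tag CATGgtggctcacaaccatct, found in *Cenpf* and *Prc1* and in the sense transcripts of 351 genes in all, had 19699 copies in GC-1spg against 11249 in GC-2spd (ts). The tag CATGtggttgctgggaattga, in *Bub3*, *Kif11* and 250 genes in all, had 1205 and 1196. The tag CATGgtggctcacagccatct, in *Ndc80* and 20 genes in all, had 482 and 290. They are shown because counting them for every gene would swamp the member's own tags: *Cenpf* would then have a log2 ratio of −0.68 instead of 1.80, and the sum of the members would have one of −0.21.

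A gene's tags can lie at more than 1 CATG site, and in several members the sites had similar ratios. In *Smc4* the main tag had 182 and 601 copies, and a tag in exon 9 had 40 and 126, while a tag in exon 20 had 31 and 43, at a log2 ratio of 0.57 (−0.13 to 1.29). In *Mki67* the main tag had 256 and 756 copies and the next 13 and 47. *Cenpa* had tags at the first CATG of different transcripts, with 391 and 245 copies and with 211 and 116. Of 46 members, 29 had over 75% of their unambiguous tags at a single site in both libraries.

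Of the 16 members with at least 50 copies of their second tag, 4 differed in its share, with exact 95% binomial intervals that did not overlap. The share of all genes that differ in this way was not computed, so whether 4 of 16 is unusual in these libraries was not tested. In *Ect2* the second site, 675 bases from the transcript's end, gave 18.1% of tags in GC-1spg (14.8 to 21.8) and 8.84% in GC-2spd (ts) (7.27 to 10.6). Its copies were 89 and 103, a log2 ratio of 0.31 (−0.11 to 0.74), while the first site, 86 bases from the end, went from 398 to 1049, a log2 ratio of 1.50 (1.33 to 1.67). So the higher level of *Ect2* lay in the tags nearest the end. In *Ccnb1* the order was the opposite, with the third site at 8.89% (7.18 to 10.8) and 15.8% (14 to 17.8), from 87 and 234 copies. In *Nuf2* the second site gave 6.50% (2.85 to 12.4) and 17.3% (13.4 to 21.8), and in *Bub3* a tag in the last exon of another transcript gave 5.28% (3.99 to 6.83) and 9.98% (8.07 to 12.2). The second site of *Nuf2* lies 5 bases from the first, so that its tag overlaps the first.

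**Figure D4:**
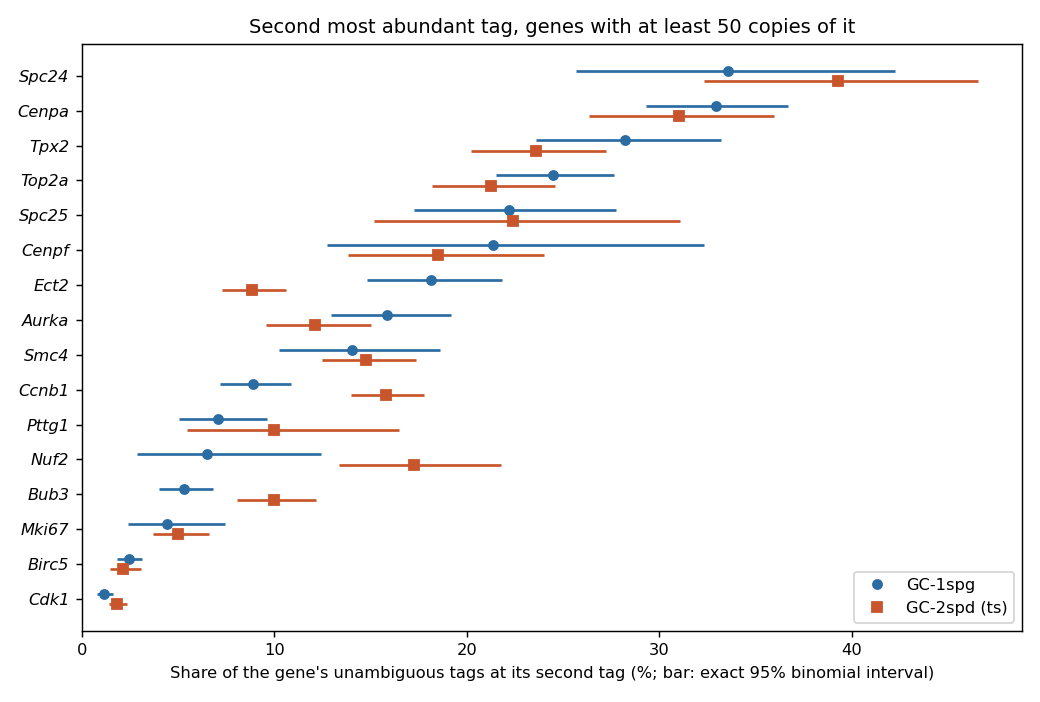
Share of a gene's unambiguous tags that lay at its second most abundant tag (%), with exact 95% binomial intervals, in GC-1spg (circles) and GC-2spd (ts) (squares), for the 16 members with at least 50 copies of that tag. The pairs of intervals are apart for *Ect2*, where the share is lower in GC-2spd (ts), and for *Ccnb1*, *Nuf2* and *Bub3*, where it is higher.

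Genes of mitosis are known to carry a CHR element (cell cycle genes homology region, TTTGAA), usually near the transcription start and often with CCAAT boxes upstream. Promoter windows from 250 bases before to 50 after the start (RefSeq, GRCm38.p6) were found for 38 of the 46 members; *Ccna2*, *Aurkb*, *Kif20a*, *Tpx2*, *Incenp*, *Spc24*, *Smc4* and *Cdc25c* had none. TTTGAA on either strand occurred in 28 of 38 members (73.7%), against 20.2% of 27025 genes. It lay within 50 bases of the start in 25 members (65.8%), against 5.72% of genes. CCAAT on either strand occurred in 30 members (78.9%), against 41.1% of genes, and both motifs in 25 (65.8%), against 7.97%. The windows below are shown because they hold the element near the start in members called higher (Cenpf, Kif23, Ect2), called lower (Spc25) and not called (Cdk1, Plk1, Ccnb2). Capitals mark the motif, and each window is read on the gene's strand.
Cenpf, chr1:189688067-189688096: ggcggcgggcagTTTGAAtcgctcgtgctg
Kif23, chr9:61946780-61946809: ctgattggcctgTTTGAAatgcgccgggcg
Ect2, chr3:27153822-27153851: cgactggattttTTTGAAtcggaggcggca
Spc25, chr2:69206172-69206201: ggcggtggagagTTTGAAattgaaagactg
Cdk1, chr10:69352910-69352939: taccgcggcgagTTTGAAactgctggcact
Plk1, chr7:122159453-122159482: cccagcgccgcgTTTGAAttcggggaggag
Ccnb2, chr9:70421533-70421562: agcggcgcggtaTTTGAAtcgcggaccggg
TTTGAA was found in 7 of 10 members called higher, in 2 of 3 called lower and in 19 of 25 not called. For CCAAT the numbers were 8 of 10, 2 of 3 and 20 of 25. A match of these letters is a description and no sign that a factor binds there.

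**Figure D5:**
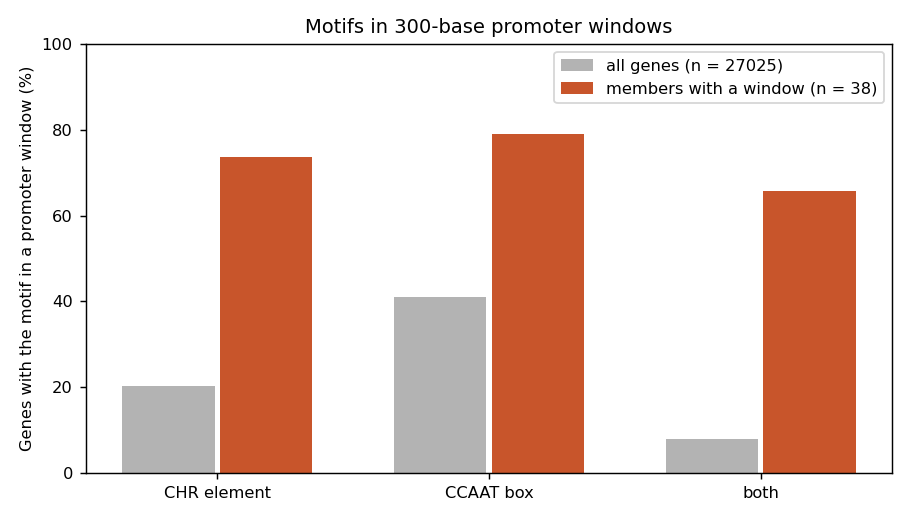
Percent of genes whose promoter window of 300 bases holds the CHR element TTTGAA, the CCAAT box, or both, on either strand, for all 27025 genes with a window and for the 38 mitotic genes with one. The bars of the mitotic genes stand at 73.7%, 78.9% and 65.8%, above 20.2%, 41.1% and 7.97% for all genes.

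A wider list of 109 other mitotic genes, written for the same processes, had a median closer to that of all genes. Of them 5 were called higher (4.59%, where 11.7% of all genes were) and 3 lower (where 7.84% of all genes were), 68 had log2 ratios above 0, and the median was 0.17, beside 0.13 over all genes. Their summed tags were 35243 in GC-1spg against 37459 in GC-2spd (ts). The genes called higher were *Smc1a* of cohesin (470 and 1228 tags, log2 ratio 1.49), the kinetochore genes *Pmf1* (350 and 977, 1.58) and *Kntc1* (114 and 229, 1.11), the motor *Kifc1* (118 and 241, 1.13) and *Lin54* (79 and 187, 1.34), whose protein binds the CHR element. Those called lower were *Hjurp* (1387 and 542 tags, −1.25), the chaperone that loads Cenpa, *Tacc3*, a spindle protein (973 and 404, −1.17), and *Clasp2*, a microtubule plus-end protein (126 and 58, −1.02). *Hjurp* and its client *Cenpa* thus both had fewer tags in GC-2spd (ts), although with only the CATG nearest the 3′ end counted the log2 ratio of *Hjurp* was 0.10.

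The most abundant gene of each group, by the tags of both libraries, is given next with its log2 ratio. *Mis12*, a gene of the outer kinetochore, had 1279 and 685 tags (−0.80). *Ube2s* of the anaphase-promoting complex had 3547 and 4389 tags (0.41) and *Mapre1*, a plus-end protein, 1525 and 1202 (−0.24). *Rad21* of cohesin had 1145 and 1096 (0.04). *Ncaph2* of condensin II had 955 and 664 (−0.42), *Nedd1* of the centrosome 368 and 335 (−0.03) and *Arpp19*, an inhibitor of the phosphatase that opposes Cdk1, 1030 and 1516 (0.66). *Foxm1*, a transcription factor of late cell cycle genes, had 237 and 387 (0.81). All 7 genes of that last group, the factors of the mitotic program, had a higher level in GC-2spd (ts) (*Lin37* with 2 tags against 0), with 542 tags in all in GC-1spg against 880 in GC-2spd (ts) and 1 of them called. The interval lay wholly above 0 in 5 of them and included 0 for *E2f4* and *Lin37*. Of all genes, 55.7% had log2 ratios above 0 and 30.2% had intervals wholly above 0.

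The germ cell counterparts of these genes gave no unambiguous sense tags. The germ cell cyclins *Ccna1* and *Ccnb3*, the kinase *Aurkc* and the meiotic cohesin subunits *Smc1b*, *Stag3*, *Rec8* and *Rad21l* were at 0 in both libraries. Tags with a single copy had been removed, so that such a gene was not detectable at this depth below 2 copies of a tag.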

How the data were processed

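DGE tags were measured in 1 GC-1spg and 1 GC-2spd (ts) library from total RNA. The authors filtered adaptor tags, tags of low quality and tags seen once, and deposited the copy number of every remaining tag as counts, with the same values as TPM over the library's clean tags. The deposited TPM was not used in the tests. The authors' alignment program: not given in the sources used here. Their UniGene reference was not used here.

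Tags (21 bases) were matched to the CATG sites of GENCODE M21 transcripts (GRCm38) with at most 1 mismatch, exact matches first, and unambiguous sense copies were summed per gene and scaled to clean tags. The 2-sided Audic-Claverie test was adjusted by Benjamini-Hochberg over 14450 genes, with 0.01 TPM for a gene at 0. It was tested on simulated data. Without replicates, edgeR's quasi-likelihood test and DESeq2 could not be fitted. edgeR's exact test was run with an assumed biological coefficient of variation (BCV). Unambiguous sense tags made up 54.7% and 57.9% of clean tags. Intervals are exact (conditional binomial or Clopper-Pearson). Promoter windows came from RefSeq (GRCm38.p6) and were matched by symbol.

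The members, the 109 other mitotic genes and the marker lists were chosen with earlier results of these data known. Every member is named; of the other list, the called genes and the most abundant gene of each group; and every germ cell counterpart. *Lin37* was named outside that rule, after its values were seen. The tags printed were chosen by log2 ratio among called members with at least 50 tags, by abundance, or because a member's shared tags outnumber its own; *Ccna2*, *Cdca8*, *Aurkb* and the promoter windows were chosen after their values were seen. Software: Python 3.11.15 (scipy 1.17.1, pandas 2.3.3, numpy 2.4.6, matplotlib 3.10.9) and edgeR 4.0.16 in R 4.3.3.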

Additional observations from a re-analysis of the deposited data

Results flagged for a closer look

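In 4 members the unambiguous antisense tags, which none of the comparisons used, outnumbered the unambiguous sense tags in both libraries. The share of all genes for which this holds was not computed. *Ccna2* had 135 antisense tags in GC-1spg against 245 in GC-2spd (ts), beside 107 and 229 sense tags. *Smc2* had 325 and 224, beside 43 and 59. Most of them, 311 and 215, were 1 tag at chr4:52488235-52488255 in the 3′ UTR of its last exon. *Ncapg* had 39 and 7, beside 26 and 4. *Cdc25b* had 22 and 25, beside 8 and 23. For *Ccna2* the tags that run into the poly(A) tail, 1452 and 2495 copies of sense, were more numerous than its antisense tags. With its shared tags added, *Ncapg* had 213 and 150 sense tags, also more than its antisense tags.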

How the results depend on the processing

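No paired analysis was possible because each cell line has 1 library and no replicate numbers, and no replicate could be left out. The 12 higher and 3 lower calls became 1 and 1 with edgeR's exact test at an assumed BCV of 0.2 (*Mki67* and *Pttg1*), and 0 and 0 at 0.4, where 2 members had an unadjusted p below 0.05 in each direction. That is 4.35% of members each way, against 6.24% of all genes in the higher and 6.49% in the lower direction. At 0.2, 3.54% and 3.38% of all genes were called. At a BCV of 0.1 the calls of the members were 11 and 2, where 9.62% and 6.68% of all genes were called. The 5 higher and 3 lower calls of the other mitotic genes became 0 and 0 at 0.2 (14 and 4 at an unadjusted p below 0.05) and 0 and 0 at 0.4 (0 and 0), 3 and 5 with TMM, 8 higher with only the last CATG, and 10 higher when shared tags were counted for every gene, which also left 1 member lower. TMM moved the median of all genes from 0.13 to −0.04 and gave 11 higher and 3 lower members, where 8.94% and 9.99% of all genes were called; the members' median was then 0.40.

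The log2 ratio of the summed members, 0.37, was 0.19 with TMM, 0.28 over unambiguous tags, 0.40 with sense matches preferred and −0.21 with shared tags. In the alternatives added after seeing the data it was 0.41 (sense matches outside pseudogenes), 0.42 (poly(A) extension) and 0.45 (both). Single genes that changed direction were *Ndc80* (4.34 without pseudogenes, in each of 3 settings), *Espl1* (−0.041) and *Hjurp* (0.10) with the last CATG only, *Bub3* (0.00021), *Cenpf* (−0.68) and *Prc1* (−0.63) with shared tags, *Kif20a* (−0.072) and *Incenp* (−0.10) with TMM, *Incenp* (−0.0080) over unambiguous tags, and *Aurkb* (−0.13) with poly(A) extension. *Ccna2* and *Ncapg* each lost their call in 8 of 16 settings, and all 15 called members lost it in at least 1, a BCV of 0.4. Except where the text names the added tags or the fewer tags counted, the cause was not tested. Counting error and the missing replicates limit every value, most of all for members with few unambiguous tags, such as *Ndc80* (5 and 4) and *Cdc25c* (3 and 4).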
